A study of Mus musculus with 20 samples.

Results

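The transcripts of 9 ion channel genes were followed in sorted Trpv1 neurons of the mouse, among 37620 genes listed. They are the TRPC genes Trpc1, Trpc4, Trpc5 and Trpc6, the mucolipin genes Mcoln1, Mcoln2 and Mcoln3, and the polycystin genes Pkd1 and Pkd2. They were taken by family name and Ensembl identifier, and each identifier was found once. Of the 9 genes, 6 had a mean log2 RPKM (log2 of reads scaled to transcript length and library size) above -1 in at least 1 group and entered the tests. The other 3, Trpc5, Mcoln2 and Mcoln3, lay below this limit.

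TRPC proteins form cation channels of the cell surface that open after Gq-coupled receptors activate phospholipase C, and different TRPC subunits can share a channel. Mucolipins are cation channels of endosomes and lysosomes that release calcium into the cytosol in response to a phosphoinositide lipid. Polycystin-1, the large membrane protein encoded by Pkd1, assembles with the channel polycystin-2 encoded by Pkd2, a pair best known from the primary cilium of kidney tubules, where loss of either causes polycystic kidney disease.

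All mice were adults of 6 to 8 weeks, homozygous for the Trpv1tm2Bbm allele (Trpv1PLAP-nLacZ), which reports Trpv1 expression with placental alkaline phosphatase and nuclear β-galactosidase, so lumbar and sacral neurons carried the same allele on both chromosomes. Dorsal root ganglia (DRG) were dissociated, β-galactosidase activity was made visible with the fluorescent product DDAO, and the brightest DDAO-positive cells were sorted. The 20 libraries came from lumbar (L4-5) and sacral (L6-S1) DRG of 5 male and 5 female donors, which gave 4 groups of 5 libraries (male lumbar, male sacral, female lumbar and female sacral) and 10 pairs. The labels name each donor by 2 animal numbers, so a donor may stand for more than 1 mouse, and the sort kept the cells with the strongest reporter activity rather than every Trpv1 neuron. The comparison of lumbar with sacral DRG asks how sensory neurons of ganglia that supply pelvic viscera differ from those of purely somatic ganglia.

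Between 44044413 and 66679106 reads were recovered per library, 57880473 in the median lumbar and 54454282.5 in the median sacral library. Of all tested genes, 30.3% were higher in sacral and 15.3% in lumbar libraries, and the counts of markers are read beside these shares. Of 10 neuron markers, most of them of nociceptors, 8 were higher in sacral libraries, Trpv1 among them, and the neuropeptide genes Calca (difference -0.16) and Tac1 (0.10) did not pass. The libraries also held glial RNA, and more of it at the lumbar level. In lumbar libraries the median summed RPKM was 2595 for 12 glial markers and 2589 for the 10 neuron markers. In sacral libraries it was 1604 and 2921. The summed RPKM of 12 glial markers was 2053 to 4091 in lumbar and 1265 to 2139.6 in sacral libraries, 11 of the 12 were lower in sacral libraries, and none was at 0. Their mean log2 RPKM was 6.26 ± 0.38 (SD, n = 10) in lumbar and 5.27 ± 0.41 in sacral libraries and was lower in the sacral library in 10 of 10 donors. Endothelial markers (7 of 8 lower and 1 higher in sacral libraries, summed RPKM 94.2 to 187 and 100.1 to 198) and immune markers (3 of 4 tested lower, 2.25 to 13.0 and 2.21 to 4.50) differed as well. Of 5 tested markers of large neurons, 2 were lower in sacral libraries, and 1 of these (Pvalb) and the 3 immune markers passed the filter on low values only through lumbar libraries. The mitochondrial genome took 37.0% to 60.2% of reads in lumbar and 21.4% to 41.4% in sacral libraries. In bulk libraries, fewer cells of a type and less RNA per cell cannot be told apart.

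Of the 6 channel genes tested between spinal levels, 4 passed an adjusted p of 0.05 in limma with the donor as a block. Trpc1 and Trpc4 were higher in sacral libraries, Pkd1 and Pkd2 were higher in lumbar libraries, and Trpc6 and Mcoln1 did not pass. In voom on reads worked back from the log2 RPKM, another fit and input than the main one, the counts were 2 and 2 with TMM scaling. Of all 16422 genes, 3551 were then higher in sacral and 3493 in lumbar libraries. With total reads as the scale of that fit, 4 channel genes were higher in sacral libraries (Trpc6 and Mcoln1 included) and 1 (Pkd2) in lumbar libraries. Of all 16422 genes, 9521 were then higher in sacral and 1434 in lumbar libraries. With the mean of the glial markers as a covariate in limma, none of the 6 passed, beside 78 of 16304 genes. Of all 16304 genes tested in the main fit, 45.6% passed. The level was higher in sacral libraries for 30.3% and in lumbar libraries for 15.3%. The median log2 difference (sacral minus lumbar) was 0.31 over the 6 channel genes and 0.11 over all tested genes.

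Trpc1 encodes a subunit that is thought to act mainly in channels shared with other TRPC proteins. The gene lies on chr9:95607046-95650777 (minus strand, NCBIM37, the mm9 assembly) with 13 merged exons. In male donors 1 to 5, log2 RPKM was 2.45, 1.86, 2.04, 1.67 and 1.60 in lumbar libraries and 2.65, 2.32, 2.73, 2.43 and 2.73 in the sacral libraries of the same donors. In female donors 1 to 5, it was 2.31, 2.61, 1.40, 1.32 and 2.38 in lumbar and 2.63, 2.79, 2.63, 2.77 and 2.85 in sacral libraries. The sacral library was higher in 10 of 10 donors, and 8 of 10 sacral libraries lay above every lumbar library, so the levels overlapped in few libraries. The difference was 0.69 on the log2 scale (SE 0.14, adjusted p = 0.000485), a 1.61-fold higher level in sacral libraries. Lumbar libraries were the more variable, with 1.96 ± 0.46 (SD, n = 10) against 2.65 ± 0.16 in sacral libraries. Between 272 and 1461 reads stood behind each value.

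Trpc4, which encodes a channel subunit that closely resembles that of Trpc5, lies on chr3:53959979-54122389 (plus strand) with 11 merged exons. Male donors 1 to 5 had 1.44, 0.68, 0.69, -0.05 and 0.44 log2 RPKM in lumbar and 1.64, 1.54, 1.34, 1.06 and 2.04 in sacral libraries. Female donors 1 to 5 had 1.003, 1.19, -0.04, 0.63 and 1.59 in lumbar and 2.31, 1.72, 1.72, 2.49 and 2.43 in sacral libraries. Again the sacral library was higher in 10 of 10 donors, by 0.20 to 1.87, and 7 sacral libraries lay above every lumbar library. Trpc4 had the largest rise among the tested TRPC genes, from 0.76 ± 0.56 to 1.83 ± 0.48 (SD, n = 10 each), which is a log2 difference of 1.07 (SE 0.18, adjusted p = 0.000103) or 2.10-fold. Of all tested genes, 92.3% changed by a smaller amount. Of all tested genes with 20 values, 14.6% were higher in the sacral library of every donor, as Trpc1 and Trpc4 were.

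**Figure D1:**
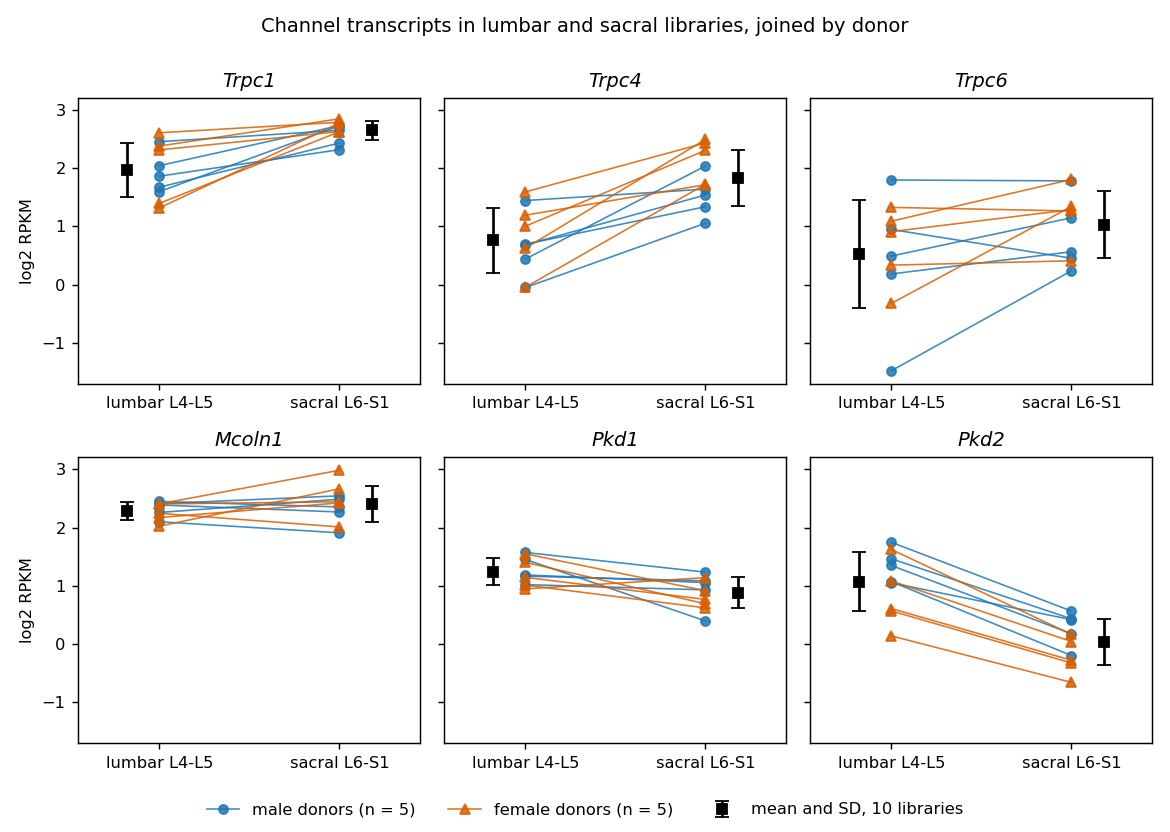
Log2 RPKM of the 6 tested channel genes in lumbar and sacral libraries, with a line for each of 5 male (blue circles) and 5 female (orange triangles) donors and black squares for the mean and SD of 10 libraries. The lines of Trpc1 and Trpc4 go up and those of Pkd2 go down in 10 of 10 donors, those of Pkd1 go down in 9 of 10, and those of Trpc6 and Mcoln1 run both ways.

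The promoters of the channel genes that differed between levels are shown so that their base composition can be compared, Trpc1 and Trpc4 first. Sequences are those of RefSeq on GRCm38.p6, which is another build than that of the gene positions, and run 5′ to 3′ on the strand of the gene, from 250 bases before to 50 bases after its start. Capitals mark each match to the GC box (GGGCGG), the CCAAT box, the TATA box (written TATAAA), the E-box (written CACGTG) or the core of the cAMP response element (written TGACG), each searched on both strands, and no match overlaps another in these windows.
Trpc1 (chr9:95750299-95750598, - strand): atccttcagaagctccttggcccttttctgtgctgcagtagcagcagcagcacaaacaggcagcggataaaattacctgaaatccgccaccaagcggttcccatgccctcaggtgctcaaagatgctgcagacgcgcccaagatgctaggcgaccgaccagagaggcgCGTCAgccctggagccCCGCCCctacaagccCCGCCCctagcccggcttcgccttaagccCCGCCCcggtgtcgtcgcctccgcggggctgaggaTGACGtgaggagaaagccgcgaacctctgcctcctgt
Trpc4 (chr3:54155807-54156106, + strand): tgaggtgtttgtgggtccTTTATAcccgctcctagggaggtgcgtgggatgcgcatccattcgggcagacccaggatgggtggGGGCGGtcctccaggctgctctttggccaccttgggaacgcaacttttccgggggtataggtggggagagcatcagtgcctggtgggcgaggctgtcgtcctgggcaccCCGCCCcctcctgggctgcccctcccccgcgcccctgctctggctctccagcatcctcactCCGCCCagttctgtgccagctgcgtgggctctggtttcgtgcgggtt

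The Trpc1 window was 63.0% G and C with 22 CpG dinucleotides and held 3 GC boxes and 2 cAMP response element cores. That of Trpc4 was 66.0% G and C with 16 CpGs and held 3 GC boxes and 1 TATA box match near its 5′ end. The median of 32851 promoters was 52.7% and 7 CpGs. GC boxes occurred in 35.7% of those promoters, CCAAT boxes in 37.4%, TATA boxes in 13.6%, E-boxes in 7.15% and cAMP response element cores in 20.8%, and a match is a description of letters, not a site in use.

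Trpc6, a subunit of channels opened directly by diacylglycerol, lies on chr9:8544432-8680565 (plus strand) and varied widely among lumbar libraries. Lumbar libraries had -1.48 log2 RPKM at the lowest, 0.70 at the median and 1.80 at the highest, and sacral libraries had 0.24, 1.21 and 1.81. The groups overlapped over most of their range, and the sacral library was higher in 7 of 10 donors. The log2 difference was 0.50 (SE 0.28, 95% confidence interval -0.09 to 1.09, adjusted p = 0.152), an interval that includes 0. Its largest donor difference, 1.72, came from male donor 2, whose lumbar library held 40 reads of the gene. The Trpc6 window before the gene start held no GC box and 1 cAMP response element core.

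Trpc5 was scarce. The gene spans chrX:140816214-141122723 (minus strand), overlaps 3 other gene models without sharing exon bases, and had 0 to 96 reads per library. Male donors 1 to 5 had 25, 24, 10, 33 and 2 reads in lumbar and 24, 0, 16, 96 and 91 in sacral libraries, and female donors had 51, 9, 12, 35 and 49 in lumbar and 82, 8, 87, 66 and 24 in sacral libraries. The 5 libraries with the highest log2 RPKM of the gene were all sacral, but the sacral level was higher in only 6 of the 9 donors with both values. Without the filter on low values, the log2 difference was 0.88 (SE 0.57, 95% confidence interval -0.30 to 2.06, adjusted p = 0.229).

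Trpc2, the TRPC gene of vomeronasal neurons, had -0.01 ± 0.30 log2 RPKM (SD, n = 10) in lumbar and 0.07 ± 0.29 in sacral libraries (difference 0.09, SE 0.15, adjusted p = 0.662). Trpc7 had 0.34 ± 0.38 and 0.09 ± 0.77 (difference -0.25, SE 0.24, adjusted p = 0.406). Neither passed the test, and the sacral library was the higher one in 6 and 5 of 10 donors.

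Comparing Trpc4 with Trpc1 inside each library removes the scale of the library. Trpc4 minus Trpc1 was -1.21 ± 0.31 (SD, n = 10) in lumbar and -0.82 ± 0.40 in sacral libraries, and the shift was upward in 9 of 10 donors (mean 0.38 ± 0.28). In male donor 1 this shift was next to nil (-1.0102 lumbar, -1.0095 sacral), and in male donor 3 it was downward (-1.35 and -1.39). Trpc4 minus Trpc6 shifted by 0.57 ± 0.66, also upward in 9 of 10 donors, and Trpc6 minus Trpc1 by -0.19 ± 0.64, downward in 7 of 10. The shift of Trpc4 against Trpc1 was larger than its own SD over donors, and that of Trpc6 against either gene was not.

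Of 20 genes of the Gq pathway and calcium stores that act with TRPC channels, a list chosen with results of these data known, 18 were tested. Of these, 6 were higher in sacral and 4 in lumbar libraries, beside 30.3% and 15.3% of all genes, and their median log2 difference was 0.24 against 0.11 over all genes. Stim1, the calcium sensor of the endoplasmic reticulum, was higher in sacral libraries (difference 0.47, SE 0.11, adjusted p = 0.00171). Of the inositol trisphosphate receptors, which release calcium from that store, Itpr1 was lower in sacral libraries by a log2 difference of -0.50 (SE 0.14, adjusted p = 0.00701) and Itpr3 of -1.08 (SE 0.14, adjusted p = 6.14e-06). Itpr2 is counted among the 4, but with means of -0.83 in lumbar and -2.29 in sacral libraries it passed the filter on low values only through the lumbar libraries, where it is high. Slc9a3r1, a PDZ scaffold that can bind the tails of TRPC4 and TRPC5, was also lower there (-1.19, SE 0.14, adjusted p = 3.73e-06).

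Of 15 TRPA, TRPM and TRPV genes, 8 were tested, 5 were higher in sacral libraries, beside 30.3% of all genes, and 3 did not pass, with a median log2 difference of 0.54 against 0.11 over all genes. The capsaicin receptor Trpv1, whose locus drives the reporter of the sort, differed by 0.96 (SE 0.15, adjusted p = 3.59e-05) and the oxidant-sensitive channel Trpm2 by 1.06 (SE 0.12, adjusted p = 1.92e-06), close to the 1.07 of Trpc4. No test compared the TRPC genes with these families.

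Pkd2 was the channel gene that fell the most. It encodes polycystin-2, itself a TRP family channel, on chr5:104888469-104934838 (plus strand, 14 merged exons). Male donors 1 to 5 had 1.05, 1.75, 1.35, 1.47 and 1.08 log2 RPKM in lumbar and 0.42, 0.57, 0.18, 0.44 and -0.19 in sacral libraries. Female donors 1 to 5 had 0.14, 0.57, 1.63, 1.09 and 0.61 in lumbar and -0.65, -0.32, 0.17, 0.05 and -0.27 in sacral libraries. The sacral library was lower in 10 of 10 donors, by 0.63 to 1.46, and 9 of 10 lumbar libraries lay above every sacral library. The exception was female donor 1, low at both levels. The log2 difference was -1.04 (SE 0.15, adjusted p = 2.95e-05), a 2.05-fold lower level in sacral libraries, and 6.55% of all tested genes with 20 values were lower in the sacral library of every donor. Donors kept to this difference closely, with an SD of 0.24 against 0.45 for Trpc1 and 0.56 for Trpc4.

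Pkd1 fell by less. The gene lies on chr17:24686895-24733459 (plus strand, 47 merged exons) and is the longest transcript of the 9 at 14189 exon bases, with 1081 to 2111 reads per library. Male donors 1 to 5 had 1.19, 1.46, 1.58, 1.17 and 1.02 log2 RPKM in lumbar and 1.06, 0.40, 1.24, 1.09 and 0.93 in sacral libraries. Female donors 1 to 5 had 1.15, 1.02, 1.41, 1.55 and 0.95 in lumbar and 0.77, 0.62, 0.69, 0.92 and 1.14 in sacral libraries. The sacral library was lower in 9 of 10 donors, female donor 5 being the exception. The ranges overlapped, with 4 lumbar libraries above every sacral library and 6 sacral libraries below every lumbar library. The log2 difference was -0.36 (SE 0.12, adjusted p = 0.0162), 1.28-fold. Without male donor 2, whose sacral library was the lowest of all 20, the log2 difference was -0.27 with an adjusted p of 0.0544. In voom with total reads as the scale it was -0.04 (adjusted p = 0.733), and with the glial covariate -0.25 (adjusted p = 0.822). Its last exons share 578 bases with Tsc2 on the opposite strand, and the counting was not stated to use strand, so reads there cannot be assigned to 1 of the 2 genes by strand. Tsc2 itself was higher in sacral libraries (0.32, SE 0.11, adjusted p = 0.0215), the opposite direction to Pkd1.

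The polycystin promoters differ in composition, as the following windows show with the same capitals.
Pkd1 (chr17:24549700-24549999, + strand): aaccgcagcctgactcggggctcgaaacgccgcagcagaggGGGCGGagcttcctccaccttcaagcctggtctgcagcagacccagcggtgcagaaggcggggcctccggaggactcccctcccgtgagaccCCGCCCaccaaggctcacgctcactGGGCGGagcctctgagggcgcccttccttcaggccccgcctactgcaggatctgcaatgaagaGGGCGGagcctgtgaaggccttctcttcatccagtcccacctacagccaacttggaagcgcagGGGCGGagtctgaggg
Pkd2 (chr5:104459207-104459506, + strand): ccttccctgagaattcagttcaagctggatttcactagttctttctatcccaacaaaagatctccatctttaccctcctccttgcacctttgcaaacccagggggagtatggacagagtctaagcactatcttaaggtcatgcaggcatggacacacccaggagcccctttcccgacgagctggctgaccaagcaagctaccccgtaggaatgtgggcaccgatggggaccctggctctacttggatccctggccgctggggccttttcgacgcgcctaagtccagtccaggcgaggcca

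The Pkd1 window held 5 GC boxes, 66.7% G and C and 18 CpGs. The Pkd2 window held none of the 5 motifs, 55.3% G and C and 9 CpGs. No motif of the 5 was thus shared by these windows, which says nothing of the factors that bind there.

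Taken within each library, Pkd1 minus Pkd2 was 0.17 ± 0.41 (SD, n = 10) on the log2 scale in lumbar and 0.85 ± 0.47 in sacral libraries. Pkd1 was the higher of the pair in 6 of 10 lumbar and 9 of 10 sacral libraries. The difference shifted toward Pkd1 in 10 of 10 donors, by 0.67 ± 0.34. Pkd1 made up a median of 53.1% of the summed RPKM of the pair in lumbar and 65.2% in sacral libraries. The sum itself had a median of 4.68 in lumbar and 2.86 in sacral libraries.

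**Figure D2:**
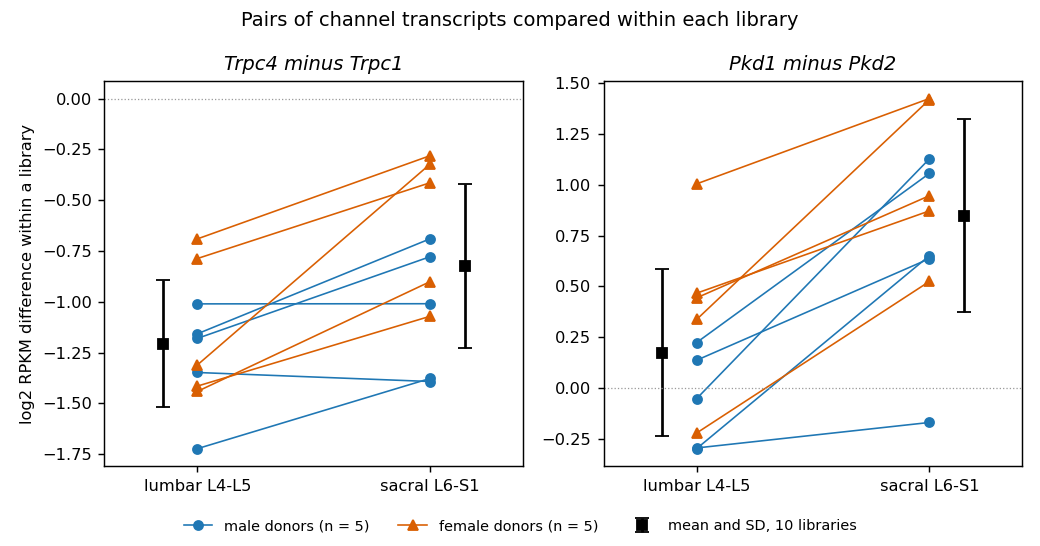
Difference in log2 RPKM between 2 channel genes of the same library, Trpc4 minus Trpc1 (left) and Pkd1 minus Pkd2 (right), for lumbar and sacral libraries joined by donor (5 male in blue, 5 female in orange), with black squares for the mean and SD of 10 libraries. Trpc4 gained on Trpc1 in 9 of 10 donors, though next to nothing in male donor 1, and Pkd1 gained on Pkd2 in 10 of 10.

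Of the polycystin relatives, Pkd2l2 was higher in sacral libraries, the opposite direction to Pkd2 (1.74 ± 0.27 and 2.28 ± 0.25 log2 RPKM, difference 0.55, SE 0.11, adjusted p = 0.000504, higher in 9 of 10 donors). Pkd1l3, known from sour-sensing taste cells, differed by 0.22 (adjusted p = 0.409). Pkd1l1, with a value in 11 libraries, Pkd1l2 (-3.28 ± 0.73 and -4.12 ± 1.65) and Pkdrej (-1.01 ± 0.45 and -1.43 ± 0.28), both with 20 values, were too low for the test, as was Pkd2l1. Of 16 cilium genes, 15 were tested, 7 were higher in sacral libraries, beside 30.3% of all genes, and 8 did not pass, with a median log2 difference of 0.26 against 0.11 over all genes. The kinesin-2 motor subunits Kif3a (difference 0.66, SE 0.09, adjusted p = 1.64e-05) and Kif3b (0.39, SE 0.09, adjusted p = 0.00196) and the BBSome subunit Bbs4 (0.43, SE 0.10, adjusted p = 0.00122), which serve cilia and also transport in axons or cell bodies, had the smallest adjusted p.

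**Figure D3:**
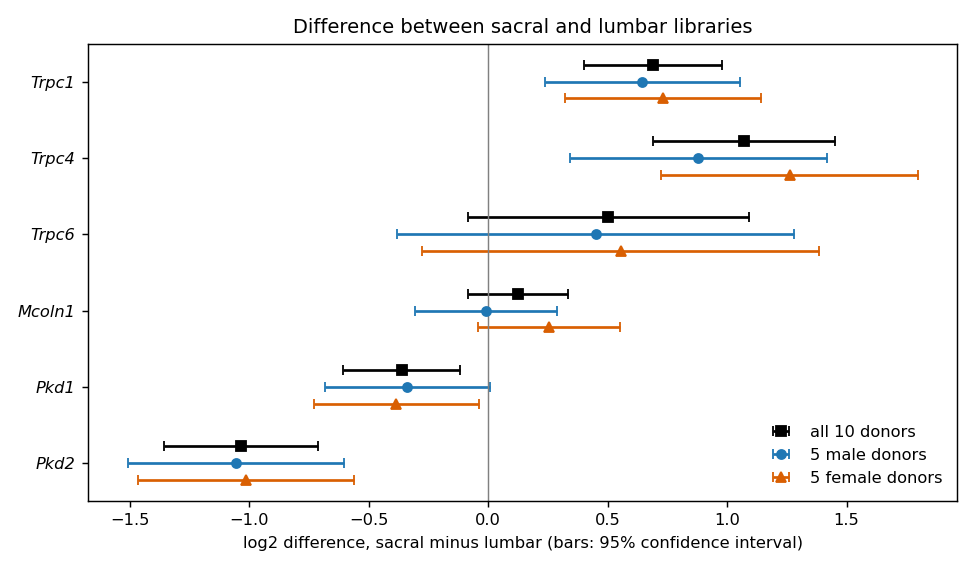
Log2 difference of the 6 tested channel genes, sacral minus lumbar, for all 10 donors (black squares), 5 male donors (blue circles) and 5 female donors (orange triangles), with bars for the 95% confidence interval. The intervals of Trpc1 and Trpc4 lie above 0 and that of Pkd2 lies below 0 in each set of donors, and those of Trpc6 and Mcoln1 include 0.

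Mcoln1, which encodes the mucolipin found in the lysosomes of nearly every cell and lost in mucolipidosis type IV, varied the least of the tested genes over the 20 libraries. It lies on chr8:3500457-3515232 (plus strand, 12 merged exons) and had 603 to 1603 reads per library. Lumbar libraries had 2.03 log2 RPKM at the lowest, 2.33 at the median and 2.45 at the highest, and sacral libraries had 1.91, 2.44 and 2.99. The sacral library was higher in 6 of 10 donors and lower in 4. The log2 difference was 0.12 (SE 0.10, 95% confidence interval -0.09 to 0.33, adjusted p = 0.332). The direction was not stable, since quantile scaling gave -0.01. Its promoter window was 65.0% G and C with 30 CpGs and held 2 E-box matches, and that of Mcoln2 held 1.

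The other mucolipins were at or near the limit of detection. Mcoln2 (chr3:145812797-145858477, plus strand) and Mcoln3 (chr3:145780423-145804770, plus strand) are neighbours. Male donors 1 to 5 had 7, 18, 4, 0 and 7 Mcoln2 reads in lumbar and 19, 3, 10, 0 and 31 in sacral libraries, and female donors had 6, 1, 8, 14 and 63 in lumbar and 12, 1, 16, 17 and 25 in sacral libraries. Without the filter on low values, its log2 difference was 0.08 (SE 0.69, 95% confidence interval -1.37 to 1.52, adjusted p = 0.945), which is too wide to show a difference at this depth. Mcoln3 had no read in 17 libraries and 5, 11 and 1 reads in the sacral libraries of male donors 3, 4 and 5. A count of 0 allows up to 3 reads in a library, which 2 of these 3 libraries exceeded. Mcoln1 made up a median of 99.0% of mucolipin RPKM in lumbar and 98.5% in sacral libraries. The limit for a count of 0 covers counting error only, since amplified reads are not independent molecules.

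**Figure D4:**
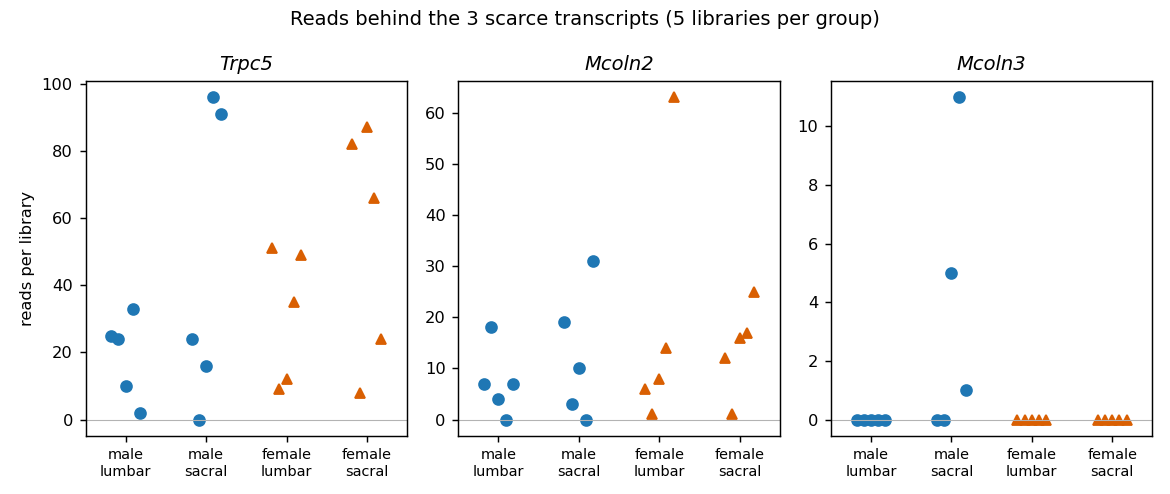
Reads per library of Trpc5, Mcoln2 and Mcoln3 in the 4 groups of 5 libraries (blue circles male, orange triangles female). Trpc5 ran from 0 to 96 reads and Mcoln2 from 0 to 63, and Mcoln3 had reads in 3 male sacral libraries alone, 11 at most.

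Of 15 genes for lysosomal channels, membranes, acidification and phosphoinositides, 14 were tested. Of these, 6 were higher in sacral and 4 in lumbar libraries, beside 30.3% and 15.3% of all genes, and their median log2 difference was 0.13 against 0.11 over all genes. The proton pump subunits Atp6v1a (difference 0.65, SE 0.11, adjusted p = 6.84e-05) and Atp6v0d1 (0.38, SE 0.08, adjusted p = 0.000462) and the lipid phosphatase Fig4 (0.51, SE 0.10, adjusted p = 0.000333), which acts in making the lipid that opens mucolipins, were higher in sacral libraries. Those lower there were the 2-pore channel Tpcn1 (-0.63, SE 0.14, adjusted p = 0.000936) and the cholesterol exporter Npc1 (-0.33, SE 0.09, adjusted p = 0.00669). The other 2 counted there, the related transcription factors Mitf (means of -1.11 in lumbar and -2.21 in sacral libraries) and Tfeb (-0.95 and -1.59), passed the filter on low values only through lumbar libraries, where they are high.

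Ordered by mean log2 RPKM over 20 libraries, the channel genes ran Mcoln1 (2.35 ± 0.24), Trpc1 (2.31 ± 0.49), Trpc4 (1.29 ± 0.75), Pkd1 (1.07 ± 0.30), Trpc6 (0.78 ± 0.79), Pkd2 (0.56 ± 0.69), Trpc5 (-3.24 ± 1.41) and Mcoln2 (-4.16 ± 1.61). Between neighbours in this order, the gap exceeded its SD over libraries only from Trpc1 to Trpc4, which held in 20 of 20 libraries, and from Pkd2 to Trpc5, which held in 19 of 19. The order differed by level. In lumbar libraries, Pkd1 and Pkd2 stood above Trpc4 and Trpc6, and in sacral libraries Trpc4 and Trpc6 stood above both polycystins. The step from Trpc6 to Pkd1 in sacral libraries (0.14 ± 0.59) and that from Pkd2 to Trpc4 in lumbar libraries (0.32 ± 0.97) were each within their SD. Trpc4 minus Pkd2 shifted from -0.32 ± 0.97 in lumbar to 1.79 ± 0.80 in sacral libraries. Its rise in 10 of 10 donors adds nothing new, since Trpc4 was higher and Pkd2 lower in the sacral library of each. The 2 most abundant, Mcoln1 and Trpc1, lay above 60.4% and 59.6% of tested genes, and Pkd2 above 28.4%.

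The glial markers moved with each gene that passed. They were lower in sacral libraries in 10 of 10 donors, with differences of -1.48 to -0.55, the direction of Pkd1 and Pkd2 and the reverse of that of Trpc1 and Trpc4. With the glial marker mean as a covariate, the level difference was 0.04 for Trpc1 (SE 0.23, adjusted p = 0.981), 0.08 for Trpc4 (SE 0.28, adjusted p = 0.965), -0.25 for Pkd1 (SE 0.23, adjusted p = 0.822) and -0.23 for Pkd2 (SE 0.25, adjusted p = 0.85). None of the 4 passed in that fit, and 78 of 16304 genes did. Since the glial mean differed between levels in every donor, level and glial RNA cannot be told apart for these genes.

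Across the 20 libraries, as a description that carries the level difference and the shared libraries in it, the genes most like each channel gene were sought among 15312 others by Pearson's r of log2 RPKM. Nearest to Trpc1 were Tm9sf2 and Slc25a12 (r = 0.95 each), to Trpc4 Ola1 (0.94) and Ctr9 (0.93), to Trpc6 Slc16a12 (0.84) and Armc6 (0.81), and to Mcoln1 Upf1 (0.84) and Mrps5 (0.80). Pkd1 had Afap1 (0.90) and Mical3 (0.86), and Pkd2 had Mertk and Arhgef10 (0.96 each). Between channel genes, r was 0.87 for Trpc1 and Trpc4, 0.63 for Pkd1 and Pkd2, and -0.85 for Trpc4 and Pkd2.

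Sex was compared at each level. None of the 6 tested channel genes passed in limma at either level, with 0.0368% of 16321 genes passing in sacral and 0.0427% of 16386 in lumbar libraries. At an unadjusted p under 0.05, 1 channel gene was found at each level, against 8.09% and 11.4% of all genes. In sacral libraries this was Trpc4, with 1.52 ± 0.36 log2 RPKM in males and 2.14 ± 0.38 in females (SD, n = 5 each). The difference, female minus male, was 0.61 (SE 0.28, adjusted p = 0.606). In lumbar libraries it was Pkd2, with 1.34 ± 0.29 in males and 0.81 ± 0.57 in females. The difference was -0.53 (SE 0.24, adjusted p = 0.419). In sacral libraries Pkd2 had 0.28 ± 0.30 in males and -0.21 ± 0.33 in females (adjusted p = 0.624). Neither voom with TMM scaling nor voom with total reads called a channel gene.

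Within males the level difference was 0.65 for Trpc1, 0.88 for Trpc4 and -1.06 for Pkd2, and within females it was 0.73, 1.26 and -1.01, each with an adjusted p under the threshold (limma, 0.0183, 0.0148 and 0.00168 in males, 0.0114, 0.00218 and 0.00296 in females). Pkd1 had -0.34 in males and -0.38 in females and did not pass in either alone (adjusted p = 0.127 and 0.0939). In males 29.6% and in females 24.9% of genes passed. The test of the difference between the sexes called 0 of the 6 genes and 0 of 16304 in limma, 0 of the 6 and 668 of all (4.1%) at an unadjusted p under 0.05, and 0 of the 6 with either voom fit. The widest interval of a called gene, that of Trpc4, put the female minus male level difference at 0.38 with bounds of -0.38 and 1.14.

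**Figure D5:**
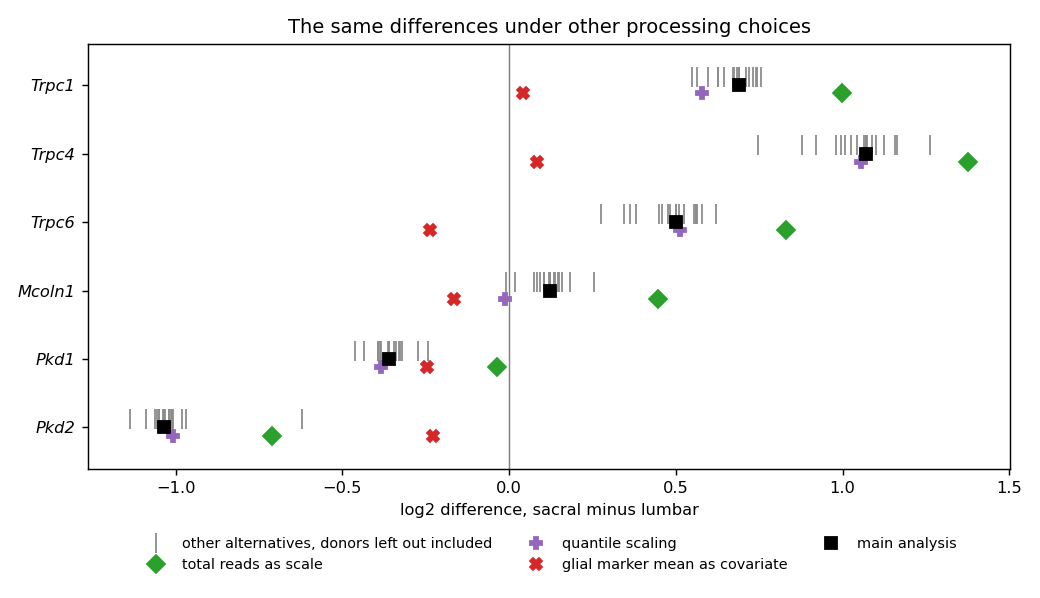
Log2 difference of the 6 tested channel genes, sacral minus lumbar, in the main analysis (black squares), with voom and total reads as the scale (green diamonds), quantile scaling (purple crosses), the glial marker mean as a covariate (red crosses) and the other alternatives (grey ticks). Trpc1, Trpc4 and Pkd2 keep their direction under each alternative and come closest to 0 with the glial covariate, at 0.04, 0.08 and -0.23.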

How the data were processed

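RNA of sorted Trpv1 neurons was sequenced by the authors, aligned to mm9 with Subread, counted per Ensembl gene from uniquely mapped reads with featureCounts, and scaled with voom of limma (3.26.9) and TMM of edgeR (3.12.1, versions from the submitters' processing notes). For each of 20 libraries, the authors deposited log2 RPKM, and the library medians are all 0.93 by a step the sources used here do not describe. Low values step by whole reads, so reads were worked back from them, and 99.9% of values came out whole within 0.01 of a read. These reads gave depth and the voom alternatives.

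Genes with a mean log2 RPKM above -1 in at least 1 group, with at least 3 values, were tested with limma 3.58.1 (R 4.3.3), taking the log2 RPKM as deposited, with 4 group means, the donor as a random block, a variance trend and Benjamini-Hochberg adjustment at 0.05 over all genes. Lumbar and sacral libraries of a donor come from the same animals, and their deviations correlated by 0.18 on average (0.04 to 0.30 in 10 pairs). Between different donors of a sex the average was -0.04 in 40 pairs, with a range (-0.37 to 0.33) that covers the same-donor values. On simulated data for the spinal level comparison (15318 genes, 100 planted differences of each size), 70% of differences of 0.7 and 95% of differences of 1.5 were found. Of the calls there, 2.37% were false. In the data 45.6% of genes passed, a far larger share than was planted, so these rates do not carry over to the real comparison. Alternatives changed the filter, scale, offset, donor block, donors and threshold, or added the glial mean as a covariate.

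Named were the 9 channel genes, relatives with at least 10 values, from each pathway list the 3 smallest adjusted p and any gene called against most of its list, and the 2 most similar genes of each. The channel genes and lists were chosen with earlier results of these data known. An item covered by this rule is not reported here. Tfeb and Tfe3 were found under older symbols. RefSeq promoters matched 9 of 9 channel genes.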

Additional observations from a re-analysis of the deposited data

Results flagged for a closer look

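A single library or donor stood far from the others of its group in 3 of 48 sets examined, where chance gives about 1 in 20. Mcoln2 in the sacral library of female donor 2 was at -7.59 log2 RPKM, which is 1 read, and the lumbar library of that donor also held 1 read. The Mcoln2 difference of male donor 2 (sacral minus lumbar) was -3.12, from 18 reads in the lumbar and 3 in the sacral library. The Pkd1 difference of male donor 2 was -1.05, against -0.34 to -0.08 in the other male donors, with 1552 and 1081 reads.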

How the results depend on the processing

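Trpc1, Trpc4 and Pkd2 passed in 24 of 25 alternative fits and Pkd1 in 20 of 25, in their main direction each time. The count of channel genes higher in sacral libraries was 2, and became 4 with total reads as the scale and 0 with the glial marker mean as a covariate. Over all genes this count was 4947 of 16304, 9521 of 16422 and 76 of 16304. The count of channel genes higher in lumbar libraries was 2, and became 1 with total reads, males alone, females alone or an adjusted p of at most 0.01. It became 0 with the glial covariate, and 1 to 2 when 1 donor was left out, the 1 arising without male replicate 2. Over all genes, those higher in lumbar libraries numbered 2489 in the main fit, 1434 with total reads and 2 with the glial covariate. They numbered 1669 of 15978 in males alone, 1152 of 15702 in females alone and 1615 of 16304 at 0.01. Trpc6 was -0.24 with the glial covariate, and Mcoln1 was -0.013 with quantile scaling, -0.0084 in males alone and -0.17 with the glial covariate, against main values of 0.50 and 0.12. The median of all genes was 0.11 in the main fit, -0.0056 in voom with TMM scaling and 0.43 in voom with total reads. In voom with total reads, Trpc6 (0.83, adjusted p = 0.00801) and Mcoln1 (0.45, adjusted p = 0.00253) passed and Pkd1 (-0.04, adjusted p = 0.733) did not. With log2(RPKM + 1), which compresses low genes by construction, Pkd2 was -0.62. Of all calls, 66.5% were higher in sacral libraries in the main analysis and 52.8% with quantile scaling. In voom on worked-back reads the share was 50.4% with TMM scaling and 86.9% with total reads. Causes were not tested. Without the replicate block, or with the replicate block as a fixed effect, the same 4 channel genes passed and all calls numbered 6577 or 7253 against 7436. Trpc5, Mcoln2 and Mcoln3 had at most 96, 63 and 11 reads in a library, and neither Trpc5 nor Mcoln2 passed without the filter on low values.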
